A study of Mus musculus with 6 samples.

Results

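The TNF receptor superfamily genes examined here are 10 receptors carried by Tregs, the suppressive CD4 lymphocytes whose identity rests on Foxp3, and were chosen by gene name from the 55840 genes of the deposited table. They are Tnfrsf1a (TNFR1), Tnfrsf1b (TNFR2), Tnfrsf4 (OX40), Tnfrsf9 (4-1BB), Tnfrsf18 (GITR), Tnfrsf25 (DR3), Tnfrsf14 (HVEM), Tnfrsf10b (a TRAIL receptor with a death domain), Cd27 and Fas. RNA sequencing libraries came from Tregs of wild-type mice (WT, 3 libraries) and of mice whose genotype is labelled Exon2KO (3 libraries), a Foxp3 locus that the series title marks with a delta 2. The title names spleen and lymph nodes as the source. No age, sex, treatment, promoter or sorting marker is given in the labels, and the titles call the libraries biological replicates without saying whether each is 1 animal or a pool. Libraries are named by the number in their column name (2, 6 or 20).

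Receptors of this superfamily are transmembrane proteins that bind trimeric ligands of the TNF superfamily and carry no enzyme activity of their own. One class, with TNFR2, OX40, 4-1BB, GITR and CD27, recruits TRAF adaptors and feeds the NF-kB and kinase pathways that support survival and division. Another class, with TNFR1, DR3, Fas and Tnfrsf10b, carries a cytoplasmic death domain that can recruit FADD or TRADD and, through them, caspase 8. Tregs are known for high constitutive TNFR2, OX40 and GITR, and 4-1BB rises on them after antigen receptor stimulation.

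Total counts ran from 17998216 to 21003496 per library. Foxp3 itself, counted over the whole gene so that the labelled deletion could not be seen, stood at 712 ± 96.5 CPM in WT and 812 ± 121 CPM in Exon2KO (SD, n = 3 each, edgeR adjusted p = 0.693). CPM are counts relative to library size, here with library sizes scaled by TMM. Tregs were checked by 8 genes of Tregs and of T cells in general, all detected. Their summed level was 4138 to 4562 CPM in WT and 3661 to 4133 CPM in Exon2KO, without overlap. Il2ra, Ctla4, Ikzf2 and Izumo1r of these were called lower in Exon2KO (log2 fold changes of -0.52, -0.85, -0.66 and -0.40), where 1.58% of all tested genes were called lower. Foxp3 and the general T cell genes Cd4, Cd3e and Cd3g were not called. Markers of B cells (8 genes) summed to 40.2 to 47.0 CPM in WT and 32.9 to 36.1 CPM in Exon2KO, and those of dendritic cells (6 genes) to 7.70 to 8.38 and 5.29 to 5.61 CPM. Both sums were lower in every Exon2KO library, although no gene of either list was called without a block. Myeloid, CD8 and NK, erythroid and stromal sums overlapped between the genotypes. Within same-numbered pairs the myeloid and erythroid sums were lower in Exon2KO in 3 of 3, and the CD8 and NK and the stromal sums higher in 3 of 3. Pecam1, at 177 CPM in WT and 209 CPM in Exon2KO, made up nearly all of the stromal sum, so this sum does not measure the other genes of its list. Of these, Cdh5 was at 0.096 and 0.158 CPM, Pdgfra at 0.0156 and 0 CPM, and Ccl19 had 0 counts. The stromal genes Col1a1 (2.03 and 0.883 CPM) and Col1a2 (0.892 and 0.297 CPM) had lower means in Exon2KO and were not called. In Exon2KO 6 the CD8 and NK sum held 22.5 CPM of Eomes, against 4.55 to 7.27 CPM in the other libraries, while Cd8a and Cd8b1 were lower there than in WT 6. With the column number as a replicate block, Cd79b (B cell, -0.51, edgeR adjusted p = 0.00501), Lyz2 (myeloid, -0.40, edgeR adjusted p = 0.0413) and Zbtb46 (dendritic, -1.05, edgeR adjusted p = 0.0386) were called lower. Pecam1 was called higher (0.23, edgeR adjusted p = 0.0164), and no other gene of the stromal list was called. With this block 9.72% of all tested genes were called in either direction. The part of these markers in the receptor results was not tested. In bulk RNA, fewer cells that express a receptor and less receptor RNA per cell cannot be told apart.

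In Exon2KO Tregs the mRNA of TNFR2, OX40 and 4-1BB fell to between 46.2% and 53.6% of the WT level, and no receptor of the set was called higher. All 10 receptors passed the filter on low counts and were fitted together with all 14919 genes that passed it. At an adjusted p under 0.05, 3 of the 10 were called lower, against 1.58% of all tested genes called lower, 0.757% called higher and 2.33% called in either direction. At an unadjusted edgeR p under 0.05 there were 6 of the 10 receptors, all lower, and 1810 of the 14919 tested genes in either direction. The median log2 fold change was -0.33 for the 10 receptors and 0.0084 for all tested genes. In this fit without a block GITR lay just outside the threshold, at 60.9% of the WT level. With the column number as a replicate block GITR was called lower (edgeR adjusted p = 0.000209), as were 5.79% of all tested genes. Of the death-domain receptors, TNFR1, DR3 and Fas had values slightly above WT and Tnfrsf10b a value below it, and none of these passed.

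**Figure D1:**
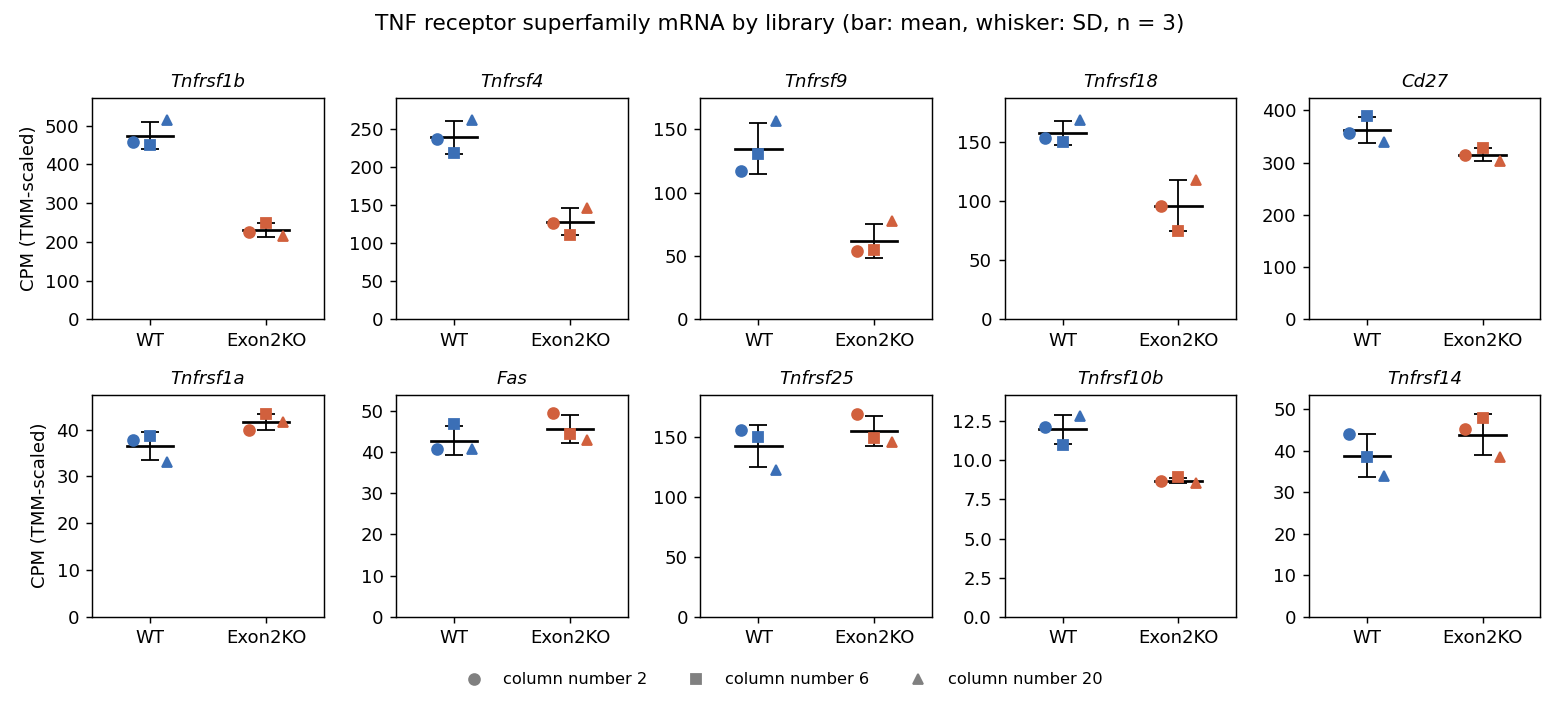
Level of each of the 10 receptors in CPM (TMM-scaled, linear axes from 0) in the 3 WT and 3 Exon2KO libraries, with symbols for the column number, the mean as a bar and the SD as whiskers. Tnfrsf1b, Tnfrsf4, Tnfrsf9 and Tnfrsf18 show a gap between the genotypes, as do Tnfrsf10b and Cd27 with smaller steps, Tnfrsf1a lies slightly higher in Exon2KO, and Fas, Tnfrsf25 and Tnfrsf14 overlap.

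Among the TRAF-binding receptors, Tnfrsf1b (ENSMUSG00000028599, chromosome 4, 145213463 to 145246870, minus strand, mm10) encodes TNFR2, the TNF receptor without a death domain. It had 458, 451 and 515 CPM in WT 2, 6 and 20. In Exon2KO 2, 6 and 20 it had 225, 249.9 and 217 CPM. The lowest WT library was therefore well above the highest Exon2KO library. The means were 475 ± 35.2 and 230.3 ± 17.4 CPM (SD, n = 3 each). In the edgeR fit the log2 fold change was -1.04, with an SE of 0.09 and an adjusted p of 0.000928. By p-value Tnfrsf1b ranked 8 among the 14919 tested genes.

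Tnfrsf4 (ENSMUSG00000029075, chromosome 4, 156013843 to 156016612, plus strand) encodes OX40, the receptor of Tnfsf4. Its level was 236, 218 and 262 CPM in WT 2, 6 and 20 and 127, 111 and 146 CPM in the Exon2KO libraries of the same numbers. Each WT library exceeded each Exon2KO library, and within both genotypes the library numbered 20 was highest. The means of 239 ± 22.0 and 128 ± 17.7 CPM (SD, n = 3 each) differed by -0.90 on the log2 scale (SE 0.11, adjusted p = 0.00423 by edgeR).

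Tnfrsf9 (ENSMUSG00000028965, chromosome 4, 150914562 to 150946102, plus strand) encodes the activation-induced receptor 4-1BB. It had 117, 130.4 and 157 CPM in WT 2, 6 and 20 against 54.2, 54.7 and 77.6 CPM in Exon2KO. The groups did not overlap, and number 20 was again the highest library of each genotype. Mean levels were 135 ± 20.2 and 62.2 ± 13.4 CPM (SD, n = 3 each). The log2 difference was -1.11, with an SE of 0.17 and an edgeR adjusted p of 0.0162. The call was lost without WT 6 (edgeR adjusted p = 0.0817) and without Exon2KO 2 (edgeR adjusted p = 0.069), while the log2 fold change stayed at -1.13 and -1.03. Camta1 overlaps Tnfrsf9 on the other strand, with 870 counts over all libraries against 11299 for Tnfrsf9, and was not called (0.34, edgeR adjusted p = 0.538).

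Tnfrsf18 (ENSMUSG00000041954, chromosome 4, 156026164 to 156028895, plus strand) encodes GITR. Its CPM were 154, 150.2 and 169 in WT 2, 6 and 20, and 96.0, 74.3 and 118 in Exon2KO. No Exon2KO library reached the lowest WT library, but the Exon2KO libraries spread more than the WT ones. Means of 157 ± 9.82 and 95.9 ± 21.6 CPM (SD, n = 3 each) gave -0.72 as log2 fold change (SE 0.15), which missed the threshold with an edgeR adjusted p of 0.0585. With the column number as a replicate block the value was -0.73 (edgeR adjusted p = 0.000209), and Tnfrsf18 became the fourth receptor called lower, where 5.79% of all tested genes were called lower. It was also called without Exon2KO 6 (-0.57) and without Exon2KO 20 (-0.89). The long noncoding RNA Gm16008 overlaps it on the other strand with 443 counts against 14446.

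Cd27 (ENSMUSG00000030336, chromosome 6, 125232622 to 125237010, minus strand), the receptor of CD70, differed less. It stood at 357, 389 and 339.6 CPM in WT 2, 6 and 20 and at 316, 328 and 303 CPM in Exon2KO. The groups did not overlap, with a narrow gap. The log2 fold change of -0.20 (95% interval -0.38 to -0.02) had an edgeR adjusted p of 0.333. Vamp1 overlaps Cd27 on the other strand, with 7793 counts against 38396, and had a log2 fold change of 0.14 (edgeR adjusted p = 0.873).

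Of the death-domain receptors, Tnfrsf1a (ENSMUSG00000030341, chromosome 6, 125349362 to 125362484, plus strand) encodes TNFR1, the second receptor of TNF. Its CPM were 37.9, 38.6 and 33.2 in WT 2, 6 and 20 and 40.0, 43.4 and 41.6 in Exon2KO. Every Exon2KO library was above every WT library, by a small margin. Among all tested genes 8.35% showed such a gap upward and 9.32% downward. The log2 fold change of 0.19 (95% interval -0.02 to 0.40) was not called (edgeR adjusted p = 0.497), and its interval excludes a fall of the size seen for Tnfrsf1b.

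Fas (ENSMUSG00000024778, chromosome 19, 34290666 to 34327772, plus strand), the receptor of Fas ligand, had 40.8, 46.9 and 40.7 CPM in WT 2, 6 and 20 and 49.5, 44.5 and 43.0 CPM in Exon2KO. The genotypes overlapped, and the log2 fold change of 0.09 had a 95% interval from -0.12 to 0.31. Tnfrsf25 (ENSMUSG00000024793, chromosome 4, 152115934 to 152120119, plus strand) encodes DR3, whose ligand is Tnfsf15. Its levels of 155, 149 and 122 CPM in WT overlapped those of 169, 149 and 146 CPM in Exon2KO. The log2 fold change was 0.12 (95% interval -0.11 to 0.35, edgeR adjusted p = 0.778). For both receptors the interval lies above the falls of Tnfrsf1b, Tnfrsf4 and Tnfrsf9, although it does not show that their levels were equal.

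Tnfrsf10b (ENSMUSG00000022074, chromosome 14, 69767472 to 69784411, plus strand), which binds TRAIL, had the lowest level of the 10, per gene length too. It had 12.1, 11.0 and 12.9 CPM in WT 2, 6 and 20 and 8.67, 8.93 and 8.55 CPM in Exon2KO. The groups did not overlap. The log2 fold change was -0.46 (95% interval -0.79 to -0.14), with an edgeR adjusted p of 0.184, or 0.05005 with the replicate block.

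Tnfrsf14 (ENSMUSG00000042333, chromosome 4, 154921933 to 154928563, minus strand) encodes HVEM, which binds LIGHT and the inhibitory receptor BTLA. Its CPM were 44.1, 38.6 and 33.9 in WT 2, 6 and 20 and 45.2, 48.0 and 38.5 in Exon2KO. The groups overlapped, and the log2 fold change of 0.18 (95% interval -0.10 to 0.45) was not called (edgeR adjusted p = 0.683). Over the whole set, 6 receptors lay lower and 1 higher in Exon2KO without overlap between the groups, against 9.32% lower and 8.35% higher among all tested genes, and 3 overlapped.

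**Figure D2:**
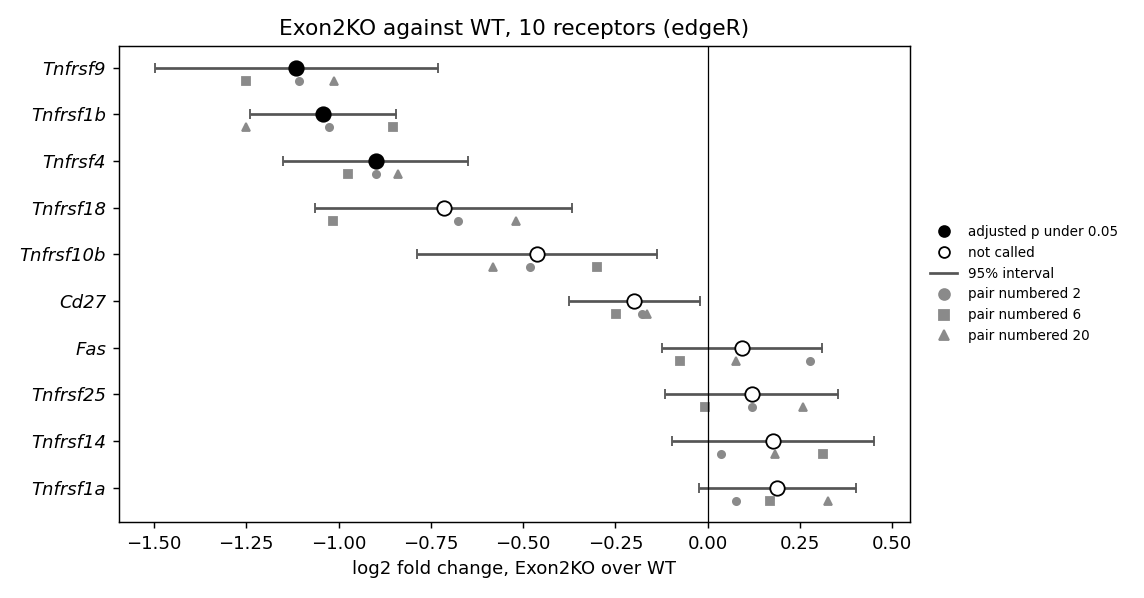
Log2 fold change (Exon2KO over WT) of the 10 receptors from edgeR with 95% intervals, filled where the adjusted p was under 0.05, and the log2 ratio of each same-numbered pair of libraries as small grey symbols below. The pairs of Tnfrsf9, Tnfrsf1b, Tnfrsf4 and Tnfrsf18 all lie below -0.50, and those of Fas and Tnfrsf25 fall on both sides of 0.

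Within pairs of libraries with the same number, the log2 ratio of Exon2KO to WT was -1.03, -0.85 and -1.25 for Tnfrsf1b and -0.90, -0.97 and -0.84 for Tnfrsf4 (numbers 2, 6 and 20). For Tnfrsf9 the same ratios were -1.11, -1.25 and -1.01, and for Tnfrsf18 they were -0.68, -1.01 and -0.52. These 4 receptors were lower in Exon2KO in 3 of 3 pairs, as were Tnfrsf10b and Cd27, while Tnfrsf1a and Tnfrsf14 were higher in 3 of 3. In the libraries numbered 20 of both genotypes, Tnfrsf4, Tnfrsf9 and Tnfrsf18 had their highest level, and Cd27, Tnfrsf25, Tnfrsf14 and Fas their lowest. Without both libraries numbered 20, a comparison added after seeing the data, the log2 fold changes were -0.94 for Tnfrsf1b, -0.94 for Tnfrsf4, -1.18 for Tnfrsf9 and -0.84 for Tnfrsf18, and all 4 were called. In that fit, 362 genes were called over the whole table. The authors' deposited table also lists these 4 with an adjusted p under 0.05, at 9.14e-05 for Tnfrsf18, and none of the other 6. Of all genes with a comparison in the authors' deposited table, 1.68% were lower at that threshold.

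Levels of different receptors were compared per gene length, as CPM per kb of the deposited gene length. In WT, Tnfrsf4 was the highest at 175 ± 16.1 CPM per kb, followed by Cd27 at 155 ± 10.7 CPM per kb (SD, n = 3 each), and the libraries of these neighbours overlapped. Tnfrsf1b, Tnfrsf18, Tnfrsf25 and Tnfrsf9 came next at 124, 103, 62.5 and 49.4 CPM per kb, and of these neighbours only the last pair overlapped. Tnfrsf14, Fas, Tnfrsf1a and Tnfrsf10b closed the order at 27.0, 20.8, 14.1 and 2.20 CPM per kb.

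In Exon2KO the order was different. Cd27 was the highest at 135 ± 5.28 CPM per kb, apart from Tnfrsf4 at 93.7 ± 13.0 CPM per kb (SD, n = 3 each). Tnfrsf25 (67.8 CPM per kb) came next and overlapped Tnfrsf18 (63.0 CPM per kb), which overlapped Tnfrsf1b (60.3 CPM per kb). Tnfrsf14 (30.5 CPM per kb) now preceded Tnfrsf9 (22.8 CPM per kb) and Fas (22.2 CPM per kb), and neighbours among these 3 overlapped. The summed level of the 10 receptors was 723 to 753 CPM per kb in WT and 495 to 529 CPM per kb in Exon2KO libraries. Within that sum, Tnfrsf4 made up 22.1% to 25.5% in WT and 16.4% to 20.3% in Exon2KO, while Cd27 made up 19.4% to 23.1% and 24.6% to 28.4%.

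**Figure D3:**
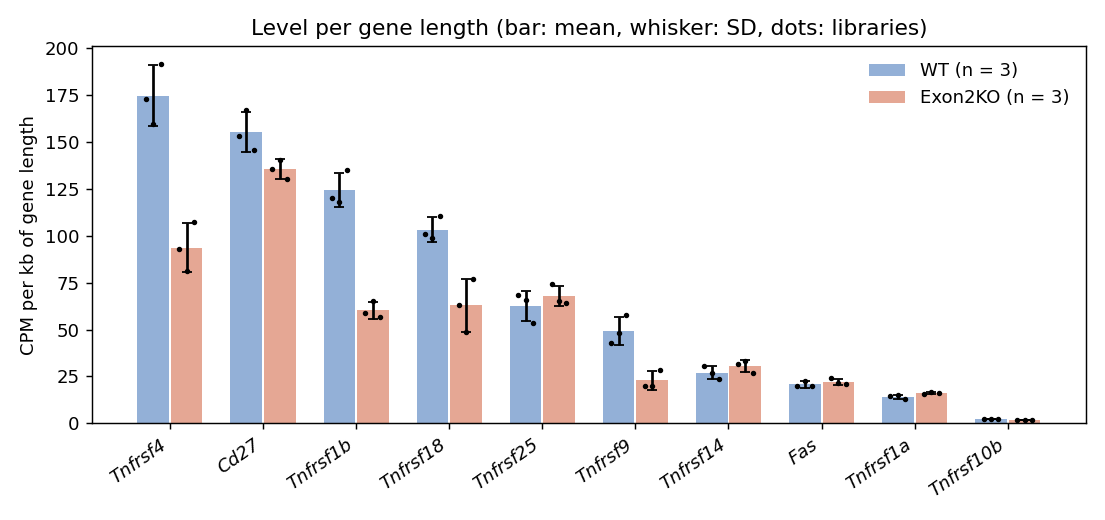
Level in CPM per kb of gene length of the 10 receptors in WT and Exon2KO, ordered by the WT mean, with bars for the mean from 0, whiskers for the SD (n = 3) and dots for libraries. Tnfrsf4 leads in WT at 175 CPM per kb, and Cd27 leads in Exon2KO at 135 CPM per kb.

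Both receptors of TNF can be set against each other within a library. The ratio per gene length of Tnfrsf1b to Tnfrsf1a was 8.20, 7.93 and 10.5 in WT 2, 6 and 20 and 3.82, 3.90 and 3.53 in Exon2KO. Every WT ratio exceeded the highest Exon2KO ratio, with means of 8.89 ± 1.44 and 3.75 ± 0.193 (SD, n = 3 each). This separation follows from the levels of both genes given above, so it is a description and was not tested.

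Of the 10 genes, 6 lie on chromosome 4 within 10.8 Mb. Among them are Tnfrsf1b, Tnfrsf4 and Tnfrsf9, which were called, and Tnfrsf18 (edgeR adjusted p = 0.0585), Tnfrsf25 and Tnfrsf14, which were not. Tnfrsf4 and Tnfrsf18 lie 9551 bases apart on the same strand. Tnfrsf1b lies 20266 bases from Tnfrsf8, which encodes CD30, another TRAF-binding receptor. Within 200 kb of Tnfrsf4, 23 other genes were tested, and none was called. Their median log2 fold change was 0.07. Sdf4, the nearest at 233 bases, had -0.23 (edgeR adjusted p = 0.215). Around Tnfrsf9, none of 6 tested genes was called, and Park7, 125 bases away, had -0.05 (edgeR adjusted p = 0.895). Around Tnfrsf1b, Tnfrsf8 was called lower, and Vps13d, 18458 bases away, had 0.22 (edgeR adjusted p = 0.328).

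**Figure D4:**
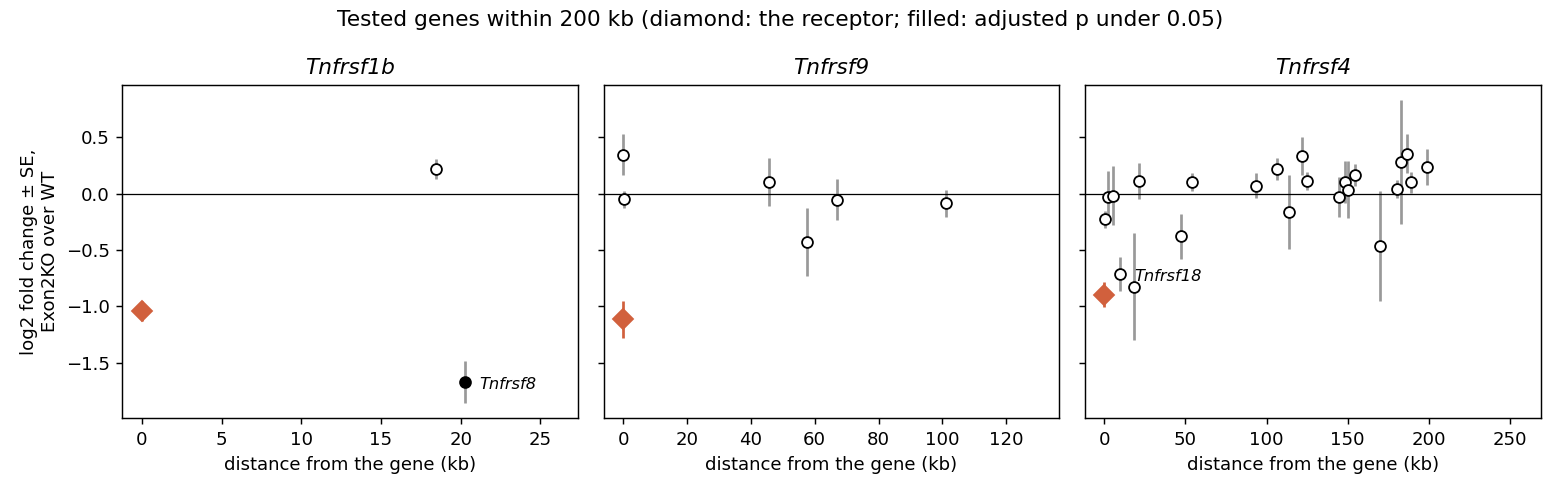
Log2 fold change with SE (Exon2KO over WT) of the tested genes within 200 kb of Tnfrsf1b, Tnfrsf9 and Tnfrsf4 against their distance in kb. The receptor is the diamond at 0 and called neighbours are filled. Tnfrsf8 beside Tnfrsf1b is the one filled neighbour, and most neighbours of Tnfrsf4 lie near 0.

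Sequences upstream of Tnfrsf1b, Tnfrsf4 and Tnfrsf9 are shown because these are the 3 receptors that were called lower. RefSeq start sites (GRCm38.p6) matched 9 of the 10 genes, with 11 windows of 250 bases upstream. The first 3 sequences are the 100 bases before the start of Tnfrsf1b (chr4:145246871-145246970, minus strand), of Tnfrsf4 (chr4:156013595-156013694, plus strand) and of the upstream start of Tnfrsf9 (chr4:150920055-150920154, plus strand). The last is a 30-base site before a second, downstream start of Tnfrsf9 (chr4:150927947-150927976, plus strand), with a match to the NF-kB letters in capitals. Only this site is shown there, because the 100 bases before that start overlap an annotated exon. RefSeq starts differ from the gene bounds given above: the Tnfrsf4 window ends short of 156013843, and both Tnfrsf9 windows lie downstream of 150914562, inside the gene.
Tnfrsf1b: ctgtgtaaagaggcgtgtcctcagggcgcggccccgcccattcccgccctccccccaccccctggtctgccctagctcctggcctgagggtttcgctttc
Tnfrsf4: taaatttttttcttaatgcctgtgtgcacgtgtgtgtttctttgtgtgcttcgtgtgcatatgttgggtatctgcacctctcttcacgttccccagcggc
Tnfrsf9 upstream start: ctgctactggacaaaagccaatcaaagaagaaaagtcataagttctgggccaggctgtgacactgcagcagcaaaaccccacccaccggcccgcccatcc
Tnfrsf9 downstream start: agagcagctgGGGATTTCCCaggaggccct

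The upstream sequence of Tnfrsf1b is rich in G and C (69.0%), and that of Tnfrsf4 is not (46.0%). On both strands of the 250-base windows, the NF-kB letters (GGGA, then any 4 bases, then CC) occurred in 3 of 11 windows (Tnfrsf9 downstream, Tnfrsf25 and Tnfrsf14), against 17.6% of all 32851 upstream windows. The AP-1 letters TGANTCA occurred in 2 of 11 (Tnfrsf9 downstream, 15 bases before the start, and Fas), against 6.75% of all windows. The forkhead letters TGTTTAC occurred in 0 of 11, against 3.17%, and the NFAT letters TGGAAA in 2 of 11 (Tnfrsf4 and the upstream window of Tnfrsf9), against 18.6%. No matches to different letters overlapped in these windows.

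Among 18 further receptors of the superfamily, 10 had enough counts to be tested, and 1 was called lower and none higher. In the same fit 0.757% of all tested genes were called higher and 1.58% lower. Over these 10 receptors the log2 fold change had a median of -0.09. The called gene, Tnfrsf8, which encodes CD30, had 26.0, 21.7 and 26.2 CPM in WT 2, 6 and 20. In Exon2KO it had 9.22, 8.26 and 5.68 CPM, and its log2 fold change was -1.67 (SE 0.19, adjusted p = 0.00254 by edgeR). The groups were far apart. Relt and Tnfrsf13b (TACI), with the highest CPM of this list, had log2 fold changes of 0.17 and -0.13 (edgeR adjusted p = 0.485 and 0.599).

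Ligands were next examined, since Tregs can express some of them. Of 18 ligand genes 13 were tested, with 1 called lower and none higher, where 1.58% of all tested genes were called lower and 0.757% higher. These 13 ligands had a median log2 fold change of -0.12. Tnfsf10, which encodes TRAIL, the ligand of Tnfrsf10b, fell from 81.8, 87.6 and 102 CPM in WT 2, 6 and 20 to 54.1, 53.5 and 60.5 CPM in Exon2KO. All Exon2KO libraries were below all WT libraries, and the log2 fold change was -0.69 (SE 0.10, edgeR adjusted p = 0.00858). Ltb (lymphotoxin beta), the ligand gene with the highest CPM, had 758 ± 68.6 CPM in WT and 649.8 ± 10.6 CPM in Exon2KO (SD, n = 3 each, edgeR adjusted p = 0.301).

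Tnfsf8, the ligand of CD30, had 66.1, 76.8 and 47.4 CPM in WT 2, 6 and 20 and 139.98, 177 and 98.7 CPM in Exon2KO. The groups did not overlap, but the log2 fold change of 1.13 (SE 0.27) did not pass (edgeR adjusted p = 0.137). With the replicate block Tnfsf8 (1.12, edgeR adjusted p = 2.19e-08), Cd40lg (0.82, edgeR adjusted p = 0.00837) and Fasl (0.81, edgeR adjusted p = 0.0266) were called higher, so that 3 ligands were called higher and 1 lower, where 9.72% of all tested genes were called in either direction. Cd40lg and Fasl encode the ligands of CD40 and Fas.

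Ligand genes of OX40, 4-1BB and GITR had few counts. Tnfsf4 (OX40 ligand) was at 0.399 and 0.566 CPM and Tnfsf9 (4-1BB ligand) at 2.53 and 2.13 CPM in WT and Exon2KO. Tnfsf18 (GITR ligand) had 0 counts in all 6 libraries, which allows a level of up to 0.141 to 0.169 CPM per library by counting error (3 counts). Tnf, which binds both TNF receptors, was at 46.0 ± 4.04 and 48.7 ± 8.53 CPM (SD, n = 3 each, edgeR adjusted p = 0.899), and Lta at 56.5 and 51.9 CPM.

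Genes downstream of the receptors were counted against the 2.33% of all tested genes called in either direction. All 26 adaptors and regulators were tested, none was called, and the median log2 fold change was -0.0018. At an unadjusted edgeR p under 0.05 there were 2 of the 26, against 1810 of all 14919 tested genes. Traf1, a TRAF that joins TNFR2 complexes, was at 333 ± 39.5 and 280.3 ± 29.4 CPM (SD, n = 3 each) with a log2 fold change of -0.25 (edgeR adjusted p = 0.405). With the replicate block, Traf1 was called lower (-0.25, edgeR adjusted p = 0.0143) and Traf6 higher (0.25, edgeR adjusted p = 0.0133). These are 2 of 26 genes, where 9.72% of all tested genes were called in either direction with the block.

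Tnfaip3, which encodes the NF-kB inhibitor A20, followed the column number rather than the genotype. It had 438, 441 and 1085 CPM in WT 2, 6 and 20 and 371, 353 and 1133 CPM in Exon2KO. The libraries numbered 20 stood far above the others in both genotypes, and the log2 fold change was -0.08 (SE 0.68, edgeR adjusted p = 0.988). Nfkbia, the gene of the inhibitor IkB alpha, was likewise highest at number 20, with 827 and 836 CPM against 472 to 562 CPM in the other libraries. Whether this has a part in the higher Tnfrsf4, Tnfrsf9 and Tnfrsf18 of these libraries was not tested.

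Among 15 NF-kB subunits, inhibitors and kinases none was called, against 2.33% of all tested genes called in either direction. Of the 15, 3 had an unadjusted edgeR p under 0.05, as had 1810 of all 14919 tested genes. The median log2 fold change over the whole list was 0.02. Nfkb1 was at 561 ± 14.9 and 569.7 ± 3.50 CPM (SD, n = 3 each, edgeR adjusted p = 0.959). The replicate block, with which 9.72% of all tested genes were called in either direction, called 3 of 15. Relb (-0.29, edgeR adjusted p = 0.00539) and Nfkb2 (-0.20, edgeR adjusted p = 0.0377), which encode NF-kB subunits, were called lower, and the kinase gene Map3k14 (0.34, edgeR adjusted p = 0.00472) higher.

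Of 9 effectors of death receptors, all tested, 1 was called lower and none higher, with a median log2 fold change of -0.16. Over all tested genes 1.58% were called lower and 0.757% higher. Bid, a BCL2 family protein cleaved by caspase 8, fell from 35.5, 35.1 and 31.9 CPM in WT 2, 6 and 20 to 22.1, 21.3 and 23.7 CPM in Exon2KO. The groups were clearly separate, and the log2 fold change was -0.61 with an SE of 0.10 (adjusted p = 0.0162 by edgeR). Casp8 itself had 0.19 (edgeR adjusted p = 0.363) and its inhibitor Cflar 0.02 (edgeR adjusted p = 0.964).

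**Figure D5:**
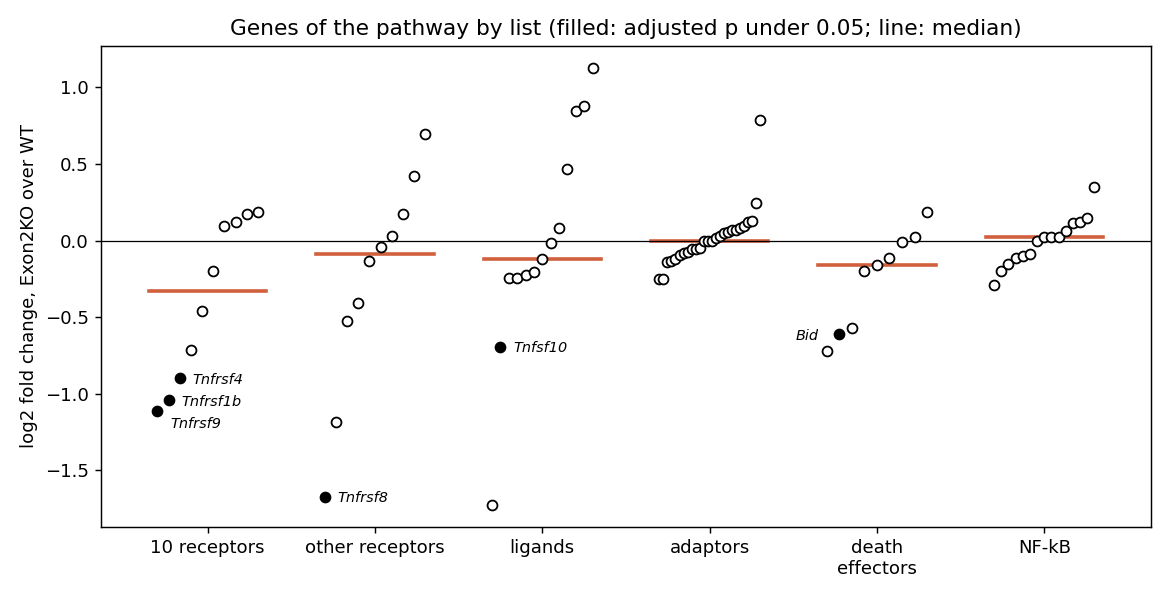
Log2 fold change (Exon2KO over WT) of each tested gene in the 10 receptors, the other receptors, the ligands, the adaptors, the death receptor effectors and the NF-kB genes, filled where the adjusted p was under 0.05, with the list median as a line. The receptors have a median of -0.33, and those of the adaptors and NF-kB genes lie near 0.

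For each receptor called lower, the genes with the most similar profile over the 6 libraries were found by the root mean square difference of log2 CPM after centring each gene on its mean. The genes share libraries and depth with the receptors, so this is a description. Nearest to Tnfrsf1b were Plxnd1 (a semaphorin receptor, difference 0.0912), Naprt (an enzyme of NAD synthesis, 0.0943) and Itgb8 (the integrin chain that pairs with alpha V, 0.0969), each with a mean of at least 5 CPM. Nearest to Tnfrsf4 were Plxnb2 (0.0911), its chromosomal neighbour Tnfrsf18 (0.117) and Slc4a8 (0.12). Nearest to Tnfrsf9 were Rln3 (0.106), Eno2 (0.122) and Itsn1 (0.137).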

How the data were processed

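The authors deposited raw counts per gene and library, the gene length in bases and their own comparison (group means as a scaled signal, log2 fold change, p-value and adjusted p-value), per the file headers. The submitters' processing notes name HISAT2 2.0.5, StringTie 1.3.3b, featureCounts 1.5.0-p3, DESeq2 1.16.1 and the build mm10. Strand use is not given in the sources used here, so reads of overlapping opposite-strand genes are uncertain.

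Counts were tested with edgeR 4.0.16 in R 4.3.3 (filterByExpr, 14919 genes; TMM; robust quasi-likelihood fit; no covariate; Benjamini-Hochberg over all tested genes; two-sided; called under 0.05). SE is the absolute log2 fold change over the square root of F. Intervals are 95%. Alternatives were other filters and scalings, DESeq2 1.42.0, limma-voom (limma 3.58.1), leaving out libraries and a block on the column number. Levels of different genes were compared as CPM per kb of deposited gene length. This replaced the planned deposited FPKM after FPKM values had been seen, because the 6 FPKM columns could be matched to a genotype only; they were not used here. The script was tested on simulated data.

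Column names match a genotype, not a titled sample. Same-numbered libraries deviated from their group means together (correlations across genes of 0.271, 0.369 and 0.494 for numbers 2, 6 and 20). The numbers were therefore taken to pair them in the replicate block and the pair ratios. The main fit did not use this pairing, so its SE and p-values include the spread between numbers. No label says what the numbers mean. No pair of same-genotype libraries agreed within sampling noise (chi-square per degree of freedom from 8.87 to 26.4). P-values measure the spread between these libraries.

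The 10 receptors and all gene lists were chosen with earlier results of these data known. From each list the called genes and the 2 with the highest CPM are named, plus the 3 genes most like each called receptor and overlapping genes. Ligands of the receptors, the nearest neighbours and genes called only with the block were named, and the ratio of Tnfrsf1b to Tnfrsf1a added, after values were seen.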

Additional observations from a re-analysis of the deposited data

How the results depend on the processing

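Tnfrsf1b and Tnfrsf4 kept their direction and their call in all 14 alternatives, with log2 fold changes from -1.12 to -0.94 and from -1.01 to -0.82. Tnfrsf9 kept its direction in all 14 (-1.31 to -0.99) and its call in 12; leaving out each of the 6 libraries in turn gave -1.31 to -0.99, and it lost the call without WT 6 and without Exon2KO 2. Tnfrsf18 passed the threshold without a count filter (-0.72), with DESeq2 (-0.71), limma-voom (-0.74), the replicate block (-0.73) and without both libraries numbered 20 (-0.84), the last added after seeing the data. Leaving out single libraries gave it values from -0.89 to -0.57, with a call in 2 of 6 fits. The cause was not tested. None of the other 6 receptors was called or changed direction in these alternatives. The number of receptors called lower ran from 2 to 4, and none was called higher.

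The 348 genes called over the whole table became 617 without a filter, 640 with DESeq2, 1450 with the replicate block, and 86 to 314 with 1 library removed. Without both libraries numbered 20, they became 362. The common coefficient of variation was 17.3% without and 8.56% with the block. The median log2 fold change over all genes moved from 0.0084 to 0.0095 when RLE replaced TMM, and to -0.0068 on upper quartiles. The number of libraries, 3 a genotype, limits the precision of every value.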
